A study of Mus musculus with 14 samples.

Results

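The 10 genes described here are transcribed by the fibroblasts of the meninges, the membranes that cover the brain. They are the fibrillar collagen genes Col1a1, Col1a2 and Col3a1, the small leucine-rich proteoglycan genes Lum, Dcn and Ogn, the transporter genes Slc6a13 and Slc22a6, the growth factor gene Igf2 and the retinoic acid synthesis gene Aldh1a2. They were chosen by symbol, with earlier results of these data known. The identifiers of the count table were matched to a gene annotation, and each of the 10 symbols had 1 row among the 48440 of the table. All 10 also passed the filter on low counts, which kept 24680 genes. The libraries were made from total RNA of mouse brain, from CARIP-/- mice (knockout, KO) and wild-type mice (WT), all of the strain C57BL/6. There were 3 KO and 3 WT libraries of cerebellum, 2 KO and 2 WT libraries of cerebral cortex, and 2 KO and 2 WT libraries of hippocampus. The titles of the cortical libraries read Cerebrum. The labels give no age for the mice, do not say how the allele was made and do not say whether a library came from 1 mouse or several. CARIP matched no gene symbol of the annotation, so the targeted gene was not looked at and the genotype rests on the labels.

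Meningeal fibroblasts lie in the pia, arachnoid and dura, and similar cells accompany larger vessels into the brain. They secrete the collagens that form the fibrils of these membranes. Type I collagen is built from the chains encoded by Col1a1 and Col1a2, and type III collagen from the chain encoded by Col3a1. Lumican (Lum), decorin (Dcn) and osteoglycin (Ogn) are secreted proteins of the same matrix, and lumican and decorin bind collagen fibrils. Slc6a13 encodes the GABA and taurine transporter GAT2, and Slc22a6 the organic anion transporter OAT1, which act where the meninges separate brain fluid from blood. Aldh1a2 encodes a retinaldehyde dehydrogenase that makes retinoic acid, a signal sent by the meninges to the cortex. Igf2 encodes a secreted growth factor and is also transcribed by the epithelium of the choroid plexus.

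The genes lie on 8 chromosomes, and only Lum and Dcn are neighbours (GRCm38, GENCODE M21). Col1a1 is on chromosome 11 (94936224 to 94953042), Col1a2 on chromosome 6 (4504814 to 4541544) and Col3a1 on chromosome 1 (45311538 to 45349706). Dcn (97479609 to 97518143) and Lum (97565128 to 97572703) are on chromosome 10, and Ogn is on chromosome 13 (49608046 to 49624501). Slc6a13 is on chromosome 6 (121300227 to 121337733), Slc22a6 on chromosome 19 (8618039 to 8628299), Aldh1a2 on chromosome 9 (71215789 to 71296243) and Igf2 on chromosome 7 (142650766 to 142666816). All are on the plus strand except Igf2, and all are protein coding. Ogn lies within the span of Cenpp, a gene of the opposite strand, with 0 shared exon bases. Igf2 shares 3596 of its 5723 exon bases (62.8%) with Gm49394, a gene of the same strand. No row of the count table matched Gm49394. A further 98 bases are shared with the antisense gene Igf2os. The annotation used in the authors' counting is not known here. Reads of Igf2 could have been assigned elsewhere or left out in it, and the values of Igf2 are uncertain.

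RefSeq promoter windows (250 bases before a transcription start, GRCm38.p6) were on hand for 7 of the 10 genes, 12 windows in all. The parts outside annotated exons are printed for Col3a1, Col1a2 and Ogn. Col3a1 and Col1a2 had lower levels in every KO library than in every WT library of the same region. Ogn had an order that turned round between regions. Col1a1 shared the order of Col3a1 and Col1a2 but had no window, and neither had Lum or Dcn. Capitals mark the CCAAT box, the TATA box (searched as TATAAA) and the GC box (searched as GGGCGG), on either strand. They are written 5′ to 3′ on the plus strand, at chr1:45311288-45311537 (Col3a1), chr6:4505370-4505492 (Col1a2) and chr13:49607765-49608014 (Ogn).
Col3a1: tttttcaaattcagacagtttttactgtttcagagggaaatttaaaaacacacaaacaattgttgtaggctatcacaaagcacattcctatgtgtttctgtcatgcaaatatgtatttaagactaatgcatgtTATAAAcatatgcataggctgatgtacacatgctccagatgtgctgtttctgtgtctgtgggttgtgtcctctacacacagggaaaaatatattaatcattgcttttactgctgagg
Col1a2: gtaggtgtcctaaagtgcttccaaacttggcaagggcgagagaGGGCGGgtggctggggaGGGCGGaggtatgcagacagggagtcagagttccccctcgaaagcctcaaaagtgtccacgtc
Ogn: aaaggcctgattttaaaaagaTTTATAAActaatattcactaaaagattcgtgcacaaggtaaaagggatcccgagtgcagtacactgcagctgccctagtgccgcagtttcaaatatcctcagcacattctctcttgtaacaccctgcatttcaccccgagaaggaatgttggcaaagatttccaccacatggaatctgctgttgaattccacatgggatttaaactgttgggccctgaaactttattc

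The 3 windows differed in their matches. That of Col3a1 held 1 TATA box, 117 bases before the start, and neither of the other boxes. That of Col1a2 held 2 GC boxes and no TATA box, with a CCAAT box in its exonic part, which is not printed. In the window of Ogn, the TATA box and its reverse complement overlapped in 1 run of letters. The E-box CANNTG, searched on both strands and not in capitals, matched at 4 places in the window of Col3a1, 3 in that of Ogn and 0 in that of Col1a2. Among 32851 windows of this length over all genes, 33.8% held the CCAAT box, 12.4% the TATA box, 32.7% the GC box and 66.2% the E-box. A match is a description of these letters and not a site shown to be bound.

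The libraries held 20055166 to 38770999 counted reads. Levels are given as CPM, reads scaled by library totals adjusted with TMM, and 1 CPM stood for 22.1 to 33.7 reads. Markers of tissue that is not part of the labelled region were high in some libraries. The choroid plexus list (12 genes, led by Ttr) summed to 996 to 1170 CPM in KO cerebellum and to 37.8, 687 and 1450 CPM in WT cerebellum 1, 2 and 3. It summed to 41.4 and 635 CPM in KO cortex 1 and 2, against 20.6 and 37.9 CPM in WT cortex. In hippocampus it summed to 108 and 95.7 CPM in KO 1 and 2, and to 1210 and 146 CPM in WT 2 and 3. KO cortex 2 also held striatal Drd2 at 44.3 CPM and Tcf7l2, abundant in the thalamus, at 79.4 CPM. The other cortical libraries had at most 1.27 and 11.0 CPM. WT cerebellum 2 held Drd2 at 5.8 CPM and Tcf7l2 at 45.3 CPM, against at most 2.97 and 19.2 CPM in the other cerebellar libraries. The 5 thalamus markers summed to 269 CPM in it, against 118 to 191 CPM in the others. The sum of the 5 striatum markers went the other way, with 53.7 CPM against 55.7 to 78.0 CPM. Their mean log2 CPM minus the regional mean was the highest there, at 1.24. The part of these differences in the results below was not tested, and values without single libraries are given beside the results they move most.

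A further 22 markers of meningeal and perivascular fibroblasts, none of them among the 10 genes, served to check the label. Of these, 21 had a row in the table and 20 passed the filter on low counts. They summed to 125, 131 and 130 CPM in KO cerebellum and 138, 126 and 137 CPM in WT cerebellum, to 113 and 112 CPM in KO cortex and 126 CPM in both WT libraries, and to 95.6 and 106 CPM in KO hippocampus and 94.5 and 90.1 CPM in WT hippocampus. Foxc1, a transcription factor of these cells, had 4.29 to 12.2 CPM over all 14 libraries. Transcripts of these markers were thus present in every library, and at most 1 of the 21 genes was at 0 in any of them. Some were near 0, however: KO hippocampus 1 had 1 read of Crabp2, 2 of Slc47a1 and 5 of Cdh1.

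**Figure D1:**
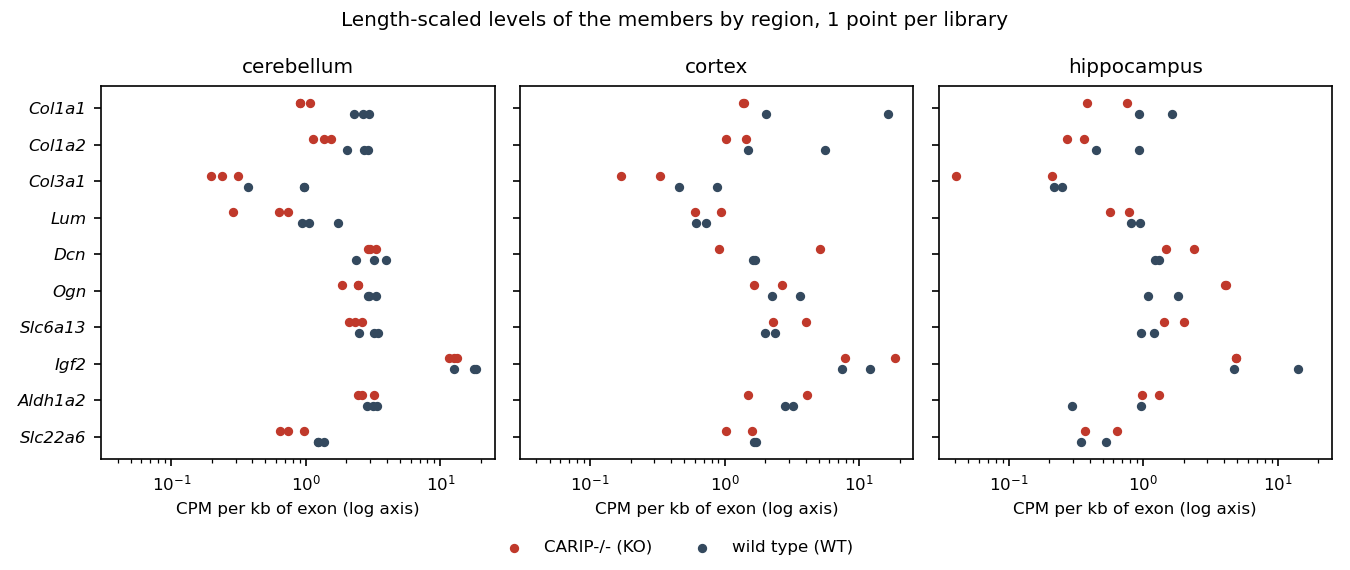
Level of each gene in CPM per kb of exon (log axis), 1 point per library, KO above WT in each row and the 3 regions side by side. Igf2 has the highest points in all 3 panels except for Col1a1 in WT cortex 2, and Col3a1 has the lowest mean of both genotypes in the cerebellum.

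In cerebellum Igf2 was the most abundant of the 10 per length of exon and Col3a1 the least. Scaled by exon length, Igf2 averaged 12.5 ± 0.962 CPM per kb in KO cerebellum and 16.3 ± 3.12 in WT cerebellum (SD, n = 3 each). Next came Dcn with 3.08 ± 0.211 and 3.18 ± 0.794, Aldh1a2 with 2.75 ± 0.413 and 3.12 ± 0.275, Slc6a13 with 2.33 ± 0.25 and 3.05 ± 0.494, and Ogn with 2.23 ± 0.335 and 3.06 ± 0.228 CPM per kb in KO and WT cerebellum. These 4 neighbours lay within each other's spread in WT cerebellum. The type I collagen genes stood lower in the order of KO cerebellum, with 1.34 ± 0.205 CPM per kb for Col1a2 and 0.961 ± 0.105 for Col1a1, against 2.53 ± 0.453 and 2.62 ± 0.329 in WT cerebellum, where they overlapped with the 4 genes above them. Slc22a6 followed with 0.785 ± 0.169 in KO and 1.28 ± 0.0787 in WT, Lum with 0.552 ± 0.234 and 1.24 ± 0.432, and Col3a1 with 0.251 ± 0.0586 and 0.769 ± 0.344 CPM per kb. The length is the union of all annotated exons, 12426 bases for Col1a2, which can exceed the length of the transcripts in use.

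The comparison of genotypes asked whether loss of CARIP changed these transcripts in each region. The 3 collagen genes had lower levels in the KO in all 3 regions. Their summed level was 24.7, 28.6 and 23.0 CPM in KO cerebellum, against 64.4, 57.7 and 46.2 CPM in WT cerebellum. It was 23.6 and 30.1 CPM in KO cortex and 187 and 36.3 CPM in WT cortex. In hippocampus it was 6.29 and 11.5 CPM in KO and 24.7 and 13.8 CPM in WT. In bulk tissue, fewer fibroblasts in the dissected piece and less RNA per fibroblast cannot be told apart. The fit called none of the 10 genes in any region, and no gene of the 24680 tested, 0% in cerebellum, 0% in cortex and 0% in hippocampus (edgeR quasi-likelihood test over all 14 libraries, Benjamini-Hochberg adjusted p under 0.05). At an unadjusted p under 0.05 the same fit had 785, 1825 and 472 genes in cerebellum, cortex and hippocampus, while the DESeq2 Wald test called 2, 50 and 2 and limma voom without a block 0, 0 and 0.

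Col1a1 had 5.93, 7.10 and 5.89 CPM in KO cerebellum, against 19.2, 14.9 and 17.5 CPM in WT cerebellum. All 3 KO libraries were below all 3 WT libraries, with a gap larger than the range within either group. The log2 fold change was -1.44 ± 0.59 (SE, edgeR adjusted p = 1). In the fit of the 6 cerebellar libraries with the library number as a block it was -1.44 ± 0.16 (edgeR adjusted p = 0.00076, range over the alternatives 0.00076 to 1). No label says that KO and WT libraries of the same number belong together, so the blocked values here and below rest on an unsettled pairing. In cortex the gene had 9.13 and 8.94 CPM in KO and 108 and 13.3 CPM in WT. WT cortex 2 stood far above the other WT library. The log2 fold change of -2.75 ± 0.74 (edgeR adjusted p = 0.66) became -0.58 without WT cortex 2 (edgeR adjusted p = 0.69) and -3.61 without WT cortex 3 (edgeR adjusted p = 0.011). In hippocampus the levels were 2.5 and 4.97 CPM in KO and 10.7 and 6.10 CPM in WT, with a log2 fold change of -1.17 ± 0.75 (edgeR adjusted p = 1), which was -0.7 without WT hippocampus 2 and -1.74 without KO hippocampus 2.

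Col1a2 followed the same order. It had 16.9, 19.1 and 14 CPM in KO cerebellum and 35.8, 33.3 and 25 CPM in WT cerebellum, a log2 fold change of -0.91 ± 0.42 (edgeR adjusted p = 1). With the number as a block the estimate was -0.91 ± 0.11 (edgeR adjusted p = 0.0016, range over the alternatives 0.0016 to 1). Col1a1 and Col1a2 were the only ones of the 10 genes that passed the test in the blocked fit, where all 10 estimates were below 0. That fit called 86 genes lower in the KO (0.348% of those tested) and 18 higher. In cortex Col1a2 had 12.9 and 17.9 CPM in KO and 69.6 and 18.4 CPM in WT, so that KO cortex 2 and WT cortex 3 nearly met. The log2 fold change there was -1.51 ± 0.52 (edgeR adjusted p = 0.67), -0.28 without WT cortex 2 and -2.21 without WT cortex 3. In hippocampus the gene had 3.39 and 4.49 CPM in KO and 11.6 and 5.55 CPM in WT (log2 fold change -1.12 ± 0.55, edgeR adjusted p = 1). Without WT hippocampus 2, the library with high choroid plexus markers, that value was -0.49.

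**Figure D2:**
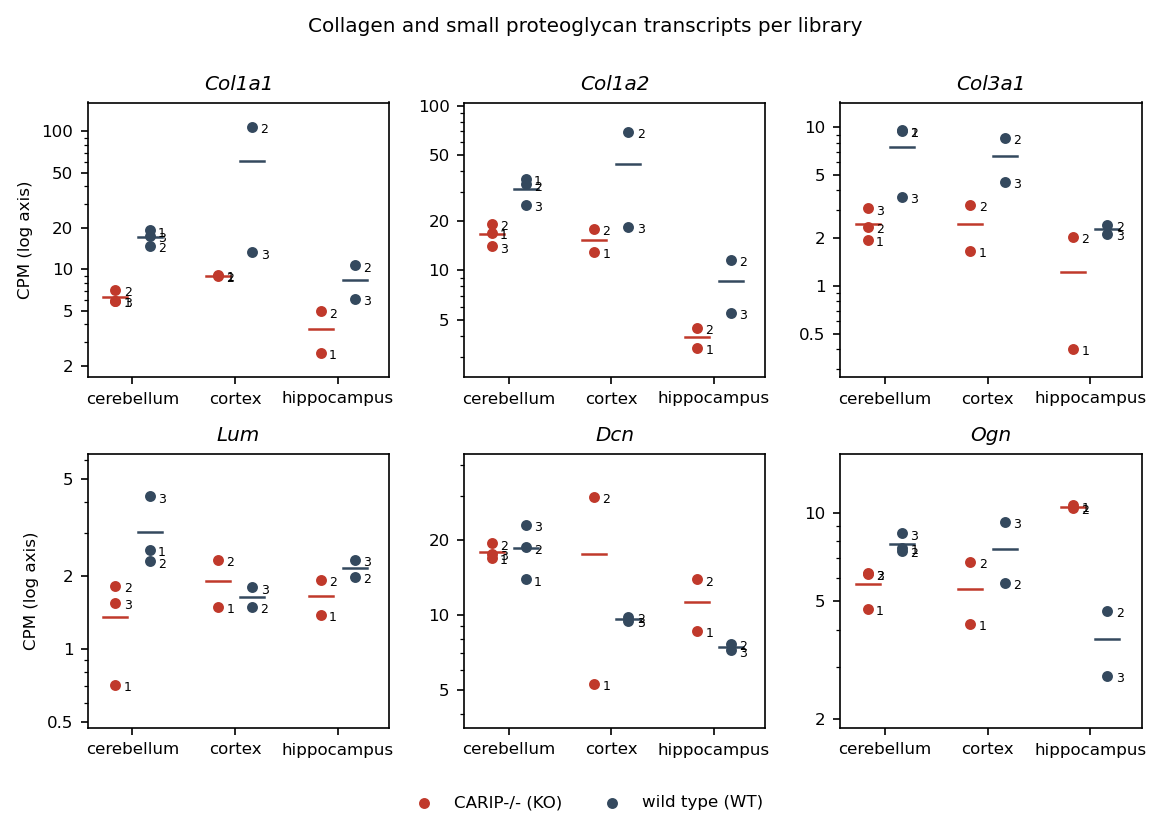
Level in CPM (log axis) of the collagen and proteoglycan genes in each library, KO left of WT within each region; points carry the library number and short lines mark group means. For Col1a1, Col1a2 and Col3a1 all KO points lie below the WT points in all 3 regions, and for Ogn the 2 KO points of the hippocampus, at 10.6 and 10.4 CPM, lie above the WT points.

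Col3a1 had 1.95, 2.36 and 3.08 CPM in KO cerebellum, against 9.44, 9.55 and 3.65 CPM in WT cerebellum. WT cerebellum 3 lay close to the KO libraries, and the log2 fold change was -1.62 ± 0.51 (edgeR adjusted p = 1) and -1.54 ± 0.39 with the number as a block (edgeR adjusted p = 0.26). In cortex it had 1.66 and 3.24 CPM in KO and 8.58 and 4.53 CPM in WT, with a log2 fold change of -1.41 ± 0.62 (edgeR adjusted p = 0.68), which was -2.0 without KO cortex 2 and -0.9 without WT cortex 2. The hippocampal levels were 0.401 and 2.05 CPM in KO and 2.43 and 2.12 CPM in WT, where KO hippocampus 1 rested on 9 reads. The log2 fold change of -0.89 ± 0.66 (edgeR adjusted p = 1) came to -0.15 without that library and to -2.48 without KO hippocampus 2.

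The order of KO below WT thus held without overlap for all 3 collagen genes in each region, as it did for 65 of the 24680 genes tested (0.263%). The 10 genes were chosen with earlier results of these data known, so this share is a description and not a test. The opposite order, KO above WT in each region, held for 106 genes (0.429%) and for 0 of the 10. Per region, 4.52% of all genes tested had every KO library below every WT library in cerebellum, 13.3% in cortex and 18.6% in hippocampus, and 4.81%, 14% and 18.1% had them above. The mean effect over the 3 regions was -1.56 ± 0.57 for Col1a1, -1.06 ± 0.35 for Col1a2 and -1.39 ± 0.39 for Col3a1 on the log2 scale (limma voom with genotype and number as a random block, adjusted p = 1, 0.99 and 0.86). That fit called 0 of 24680 genes (0%), with 1086 at an unadjusted p under 0.05, and edgeR without the block called 1. The mean effect of Col1a1 was -1.07 without WT cortex 2 (limma voom adjusted p = 0.24) and -2.07 without WT cortex 3 (limma voom adjusted p = 0.003, range over the alternatives 0.003 to 1). The effects on the 3 collagen genes were not shown to differ between regions: the largest difference was 1.59 ± 1.03 for Col1a1, hippocampus minus cortex (edgeR interaction, adjusted p = 0.93). The interaction tests called 0 of 24680 genes for cerebellum minus cortex (0%), cerebellum minus hippocampus (0%) and hippocampus minus cortex (0%), with 1309, 368 and 782 genes at an unadjusted p under 0.05 and 0 in DESeq2 and limma voom.

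The ratio of the 2 chains of type I collagen varied. For each read of Col1a2 there were 0.352, 0.371 and 0.419 reads of Col1a1 in KO cerebellum, against 0.535, 0.447 and 0.699 in WT cerebellum. The groups did not overlap. In cortex the ratio was 0.71 and 0.499 in KO and 1.56 and 0.723 in WT, again without overlap, and in hippocampus it was 0.737 and 1.11 in KO and 0.921 and 1.1 in WT, where the groups overlapped. The highest ratio was that of WT cortex 2, the library with the highest level of both genes.

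None of the proteoglycan genes shared the order of the collagens in all 3 regions. Lum, which encodes lumican, had 16 to 108 reads per library. It had 0.708, 1.81 and 1.54 CPM in KO cerebellum and 2.56, 2.29 and 4.24 CPM in WT cerebellum, without overlap (log2 fold change -1.15 ± 0.37, edgeR adjusted p = 1, and 0.17 with the number as a block). Its cortical levels overlapped, with 1.49 and 2.32 CPM in KO and 1.49 and 1.79 CPM in WT. In hippocampus they were 1.38 and 1.92 CPM in KO and 1.97 and 2.32 CPM in WT (log2 fold change -0.38 ± 0.45, edgeR adjusted p = 1).

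Dcn, the decorin gene, was nearly level between genotypes in cerebellum, with 17.0, 19.4 and 17.6 CPM in KO and 13.9, 18.7 and 23.1 CPM in WT (log2 fold change -0.04 ± 0.46, edgeR adjusted p = 1). In cortex KO libraries 1 and 2 stood at the extremes, with 5.26 and 29.8 CPM, around 9.81 and 9.44 CPM in WT. The log2 fold change was 0.87 ± 0.57 there (edgeR adjusted p = 0.71), -0.89 without KO cortex 2, the library with striatal, thalamic and choroid plexus transcripts, and 1.6 without KO cortex 1 (edgeR adjusted p = 0.0092, range over the alternatives 0.0092 to 1). In hippocampus Dcn had 8.61 and 13.9 CPM in KO and 7.63 and 7.20 CPM in WT, higher in both KO libraries (log2 fold change 0.60 ± 0.58, edgeR adjusted p = 1). Collagen reads, summed over the 3 genes, were 1.46, 1.48 and 1.31 for each read of Dcn in KO cerebellum, against 4.65, 3.09 and 2.0 in WT cerebellum. The same ratio was 0.731 and 0.828 in KO hippocampus and 3.24 and 1.91 in WT hippocampus, again without overlap, while in cortex it was 4.49 and 1.01 in KO and 19 and 3.84 in WT, where the groups overlapped.

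Ogn, the osteoglycin gene, lay on opposite sides in cerebellum and hippocampus. It had 4.73, 6.23 and 6.21 CPM in KO cerebellum and 7.59, 7.44 and 8.52 CPM in WT cerebellum, lower in every KO library (log2 fold change -0.45 ± 0.26, edgeR adjusted p = 1). In hippocampus it had 10.6 and 10.4 CPM in KO, the highest values of the series, and 4.65 and 2.79 CPM in WT, the lowest but for KO cortex 1. The log2 fold change was 1.5 ± 0.32 (edgeR adjusted p = 1, range over the alternatives 0.054 to 1), and it ranged between 1.18 and 1.91 when libraries were left out in turn. By its p the gene ranked 4 among the 24680 in that region. In cortex the gene overlapped, with 4.20 and 6.80 CPM in KO and 5.79 and 9.29 CPM in WT (log2 fold change -0.45 ± 0.31, edgeR adjusted p = 0.71). The effect in cerebellum minus that in hippocampus was -1.95 ± 0.41 and that in hippocampus minus that in cortex 1.95 ± 0.45 (edgeR interaction, adjusted p = 1 and 0.93). Cenpp, in whose introns Ogn lies, had 11.1 and 7.98 CPM in KO hippocampus and 10.8 and 6.73 CPM in WT hippocampus, which overlapped.

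Slc22a6, the organic anion transporter, had 2.57, 3.87 and 2.95 CPM in KO cerebellum and 5.47, 4.91 and 4.95 CPM in WT cerebellum, lower in every KO library (log2 fold change -0.70 ± 0.27, edgeR adjusted p = 1, and 0.25 with the number as a block). It was also lower in both KO libraries of the cortex, with 4.12 and 6.32 CPM against 6.55 and 6.81 CPM in WT, and overlapped in hippocampus, with 1.47 and 2.53 CPM in KO and 2.1 and 1.38 CPM in WT. Slc6a13, the GABA and taurine transporter, overlapped in cerebellum, with 6.68, 7.52 and 6.07 CPM in KO and 9.27, 7.27 and 10.1 CPM in WT. In hippocampus its levels were 4.15 and 5.84 CPM in KO and 3.48 and 2.79 CPM in WT, higher in both KO libraries (log2 fold change 0.67 ± 0.31, edgeR adjusted p = 1). In cortex it had 6.66 and 11.8 CPM in KO and 6.86 and 5.75 CPM in WT (log2 fold change 0.55 ± 0.29, edgeR adjusted p = 0.69), and the value was 0.06 without KO cortex 2.

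**Figure D3:**
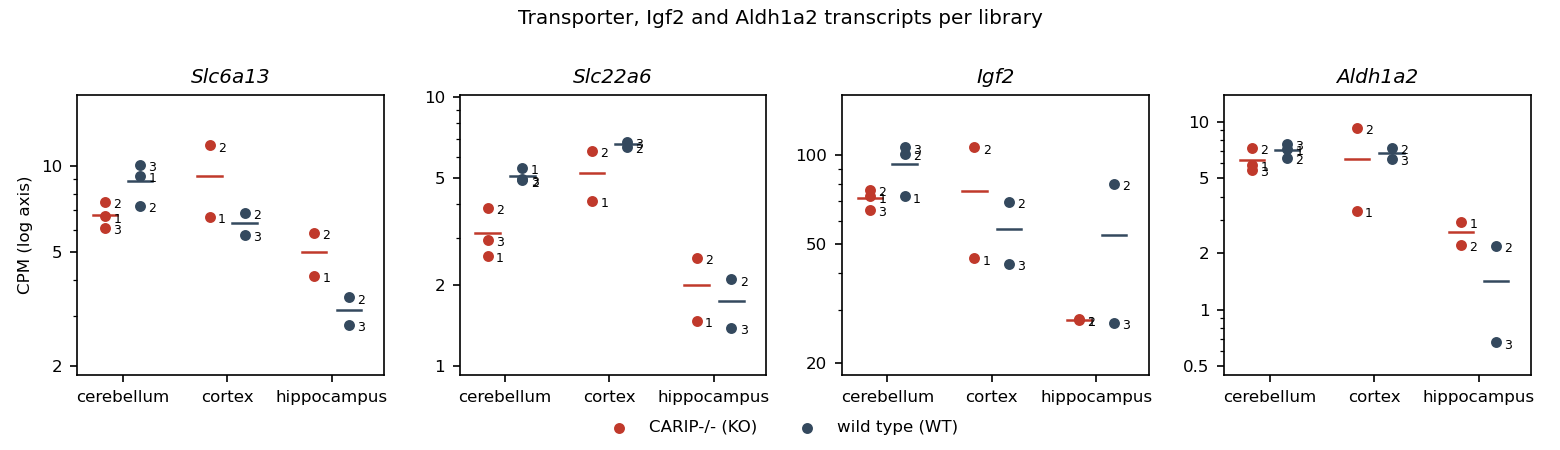
Level in CPM (log axis) of the transporter genes, Igf2 and Aldh1a2 in each library, KO left of WT within each region, with library numbers and group means. KO cortex 2 is the highest cortical library for Slc6a13, Igf2 and Aldh1a2, and WT hippocampus 2, at 80.0 CPM of Igf2, stands apart from the 27.2 to 28.0 CPM of the other 3 hippocampal libraries.

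Igf2 had 72.5, 76.4 and 65.5 CPM in KO cerebellum and 72.6, 101 and 106 CPM in WT cerebellum, which overlapped (log2 fold change -0.38 ± 0.39, edgeR adjusted p = 1). In cortex it had 44.9 and 106 CPM in KO and 69.5 and 42.9 CPM in WT. In hippocampus it had 27.8 and 28.0 CPM in KO and 80.0 and 27.2 CPM in WT. The high libraries of both regions, KO cortex 2 and WT hippocampus 2, were those with 511 and 995 CPM of Ttr, the main transcript of choroid plexus epithelium, against 7.13 to 21.9 and 35.2 to 68.6 CPM in the others of the region. Without them the log2 fold change of Igf2 was -0.34 in cortex in place of 0.43, and 0.04 in hippocampus in place of -0.94. In cerebellum WT 1 had 6.84 CPM of Ttr and 72.6 CPM of Igf2. WT cerebellum 2 and 3 had 562 and 1260 CPM of Ttr and 101 and 106 CPM of Igf2. The KO cerebellar libraries had 848 to 1020 CPM of Ttr and 65.5 to 76.4 CPM of Igf2. The part of choroid plexus tissue in the values of Igf2 was not tested. Aldh1a2 had 5.88, 7.29 and 5.53 CPM in KO cerebellum and 7.15, 6.42 and 7.66 CPM in WT cerebellum. Its cortical levels were 3.35 and 9.26 CPM in KO and 7.24 and 6.36 CPM in WT, and its hippocampal levels 2.94 and 2.22 CPM in KO and 2.18 and 0.669 CPM in WT. Both KO libraries were the higher ones in hippocampus, by a narrow margin over WT hippocampus 2 (log2 fold change 0.86 ± 0.51, edgeR adjusted p = 1). WT hippocampus 3 rested on 17 reads, and the value was 0.25 without it and 1.94 without WT hippocampus 2.

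**Figure D4:**
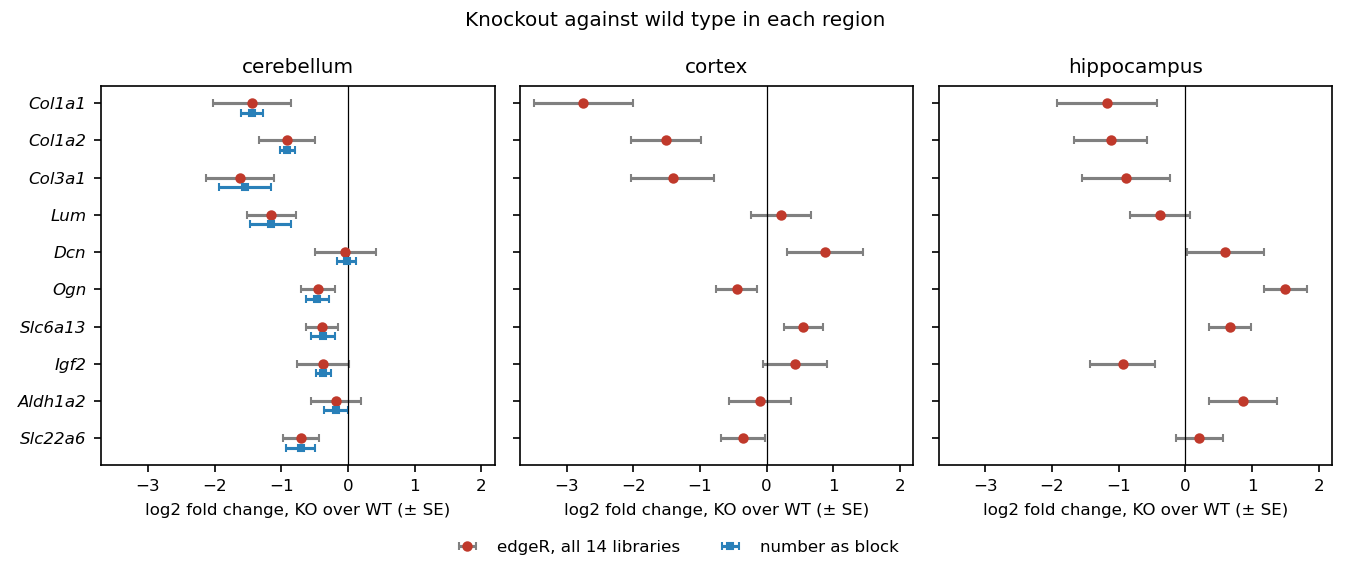
Log2 fold change, KO over WT, with its standard error for the 10 genes in each region; circles are the edgeR fit of all 14 libraries and squares, in the cerebellum, the fit with the library number as a block. All 10 estimates lie below 0 in the cerebellum, and the standard errors of Col1a1 and Col1a2 are 0.16 and 0.11 for the squares. The squares come from the cerebellar libraries alone, so they differ from the circles in the libraries fitted as well as in the block.

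By region, the estimates of all 10 genes were below 0 in cerebellum, with a median of -0.58 against -0.01 over all genes tested. In cortex 4 were positive and 6 negative (median -0.23, against 0.02 over all genes), and in hippocampus 5 and 5 (median -0.09, against 0). The 6 genes without overlap in cerebellum were all lower in the KO, where 4.52% of all genes tested were lower without overlap and 4.81% higher. The 4 of cortex were also all lower, against 13.3% of all genes lower and 14% higher there. In hippocampus 4 were lower (the 3 collagen genes and Lum) and 4 higher (Dcn, Ogn, Slc6a13 and Aldh1a2), against the 18.6% and 18.1% of all genes given above. WT hippocampus 3 was the lowest hippocampal library for Ogn, Slc6a13 and Aldh1a2, and by narrow margins for Dcn, Igf2 and Slc22a6. It also had the fewest cerebellar transcripts. The 7 cerebellum markers summed to 58.0 and 67.5 CPM in KO hippocampus and to 59.2 and 23.8 CPM in WT hippocampus 2 and 3. Gabra6, a receptor subunit of cerebellar granule cells, had 7.49 and 4.62 CPM in KO hippocampus, and 8.47 and 0 CPM in WT hippocampus 2 and 3. The part of this difference in the values of these genes was not tested.

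The levels also differed between regions, and there the tests passed. The hippocampus had less of most of these transcripts. Over both genotypes with equal weight, 7 of the 10 were higher in cerebellum than in hippocampus (edgeR, adjusted p under 0.05), where 47.3% of all genes tested were called in either direction. Col1a2 was higher by 1.98 ± 0.36 on the log2 scale, Aldh1a2 by 1.79 ± 0.33, Col3a1 by 1.36 ± 0.43, Slc22a6 by 1.10 ± 0.23, Igf2 by 1.08 ± 0.32, Dcn by 1.0 ± 0.38 and Slc6a13 by 0.97 ± 0.20. The adjusted p was 0.0011 for Col1a2, 0.00068 for Aldh1a2 and just under 0.05 for Dcn (edgeR). Without KO hippocampus 1 only Col1a2, Aldh1a2, Slc22a6 and Slc6a13 passed.

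In hippocampus against cortex 5 of the 10 were lower and none higher, where 12% of all genes were called. Col1a2 was lower by a log2 fold change of -2.16 ± 0.39, Col1a1 of -2.06 ± 0.53, Aldh1a2 of -1.78 ± 0.35, Slc22a6 of -1.66 ± 0.24 and Slc6a13 of -0.95 ± 0.21 (edgeR adjusted p = 0.0042, 0.03, 0.005, 0.00065 and 0.011). Without KO hippocampus 1, or without WT hippocampus 3, Col1a2, Aldh1a2 and Slc22a6 passed. The value of Col1a1 ranged between -2.49 and -0.97 over the libraries left out. In cerebellum against cortex 1 gene passed, where 48.4% of all genes were called: Slc22a6 was lower in cerebellum, by -0.56 ± 0.21 (edgeR adjusted p = 0.041, range over the alternatives 0.015 to 0.17). Lum and Ogn passed in none of the 3 region comparisons.

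Other fibroblast markers were also compared between regions. Of the 20 tested, 12 were lower and 0 higher in hippocampus than in cortex, where 12% of all genes were called, with a median log2 fold change of -0.87 against 0 over all genes. In cerebellum against hippocampus 10 were higher and 0 lower (median 0.59, against 0.02). The 47.3% of all genes called there went in both directions, with 5583 of 24680 higher and 6093 lower. Examples are Cdh1, the adhesion molecule E-cadherin (-3.01 ± 0.46, edgeR adjusted p = 0.00094, in hippocampus against cortex), and the transcription factor Foxc2 (-2.41 ± 0.36, adjusted p = 0.00072). Crabp2, a retinoic acid binding protein, was lower, by a log2 fold change of -2.1 ± 0.43 (edgeR adjusted p = 0.0064). Reads were few: Cdh1 had 5 to 26 per hippocampal and 44 to 148 per cortical library, and Crabp2 had 1 to 17 and 22 to 52. Between genotypes 0 of the 20 passed in any region, and their median log2 fold change was -0.04 in cerebellum, -0.24 in cortex and 0.09 in hippocampus.

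**Figure D5:**
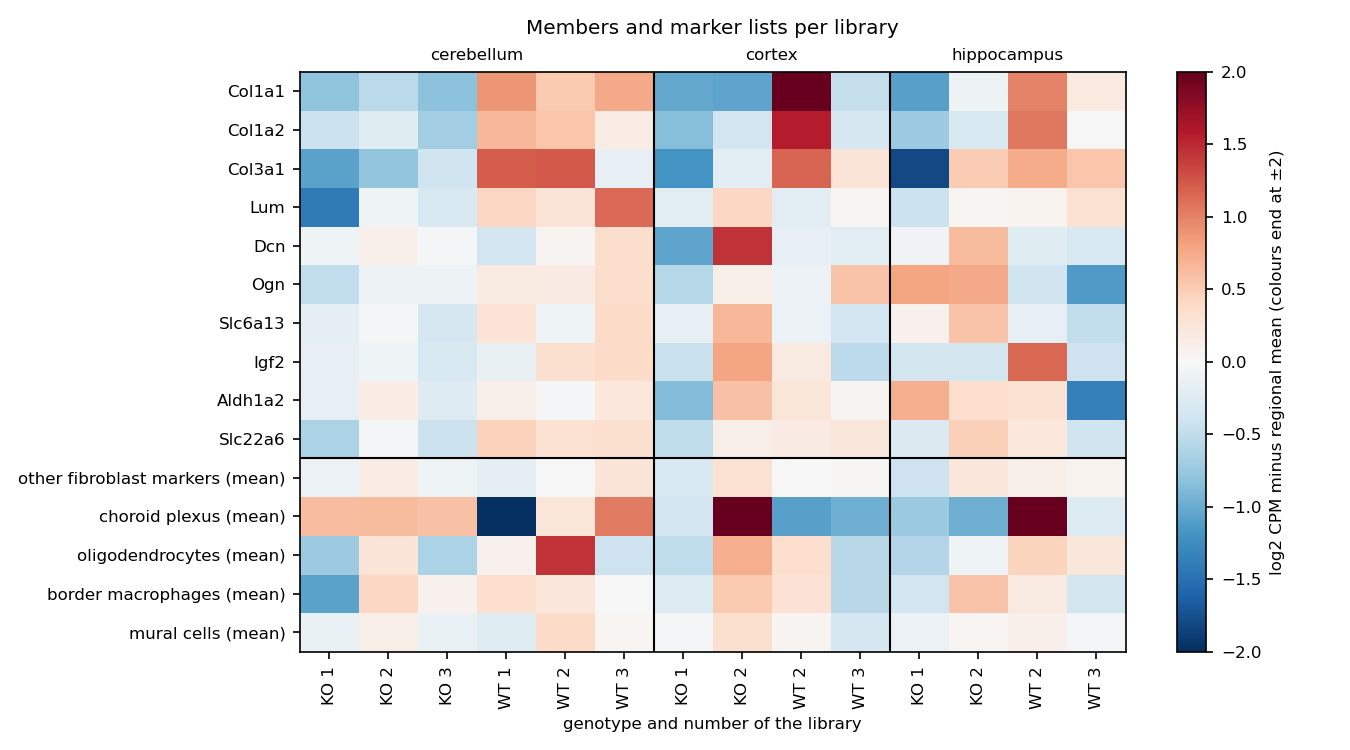
Log2 CPM of each gene minus the mean of its region, for every library (columns, KO left of WT within a region), with the means of 5 marker lists below; red is above and blue below the regional mean, and colours end at 2 in either direction. The rows of Col1a1, Col1a2 and Col3a1 are alike, while the row of choroid plexus markers is darkest in WT cerebellum 1, KO cortex 2 and WT hippocampus 2.

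Centred within region, which leaves the difference between genotypes in, the 10 genes did not vary as 1 group. The closest were Col1a1 and Col1a2, whose log2 CPM, centred within region, had a Pearson r of 0.95 and a Spearman rho of 0.95 over 14 libraries, and an r of 0.91 without the 2 libraries farthest from the median of Col1a1. Centred within region and genotype the values were 0.90, 0.72 and 0.70. Col3a1 was next, with r of 0.79 and rho of 0.87 to Col1a2 (0.82 without the farthest 2). Dcn was closest to Slc6a13 (r 0.71, rho 0.61, and 0.69 without the farthest 2) and Ogn to Aldh1a2 (0.78, 0.61 and 0.52). The highest r of Lum was with Slc22a6 (0.66, 0.68 and 0.52). Igf2 was closest to Col1a2 (0.55, 0.58 and 0.37), and its r with Aldh1a2 was 0.42. Centred within region and genotype, Igf2 was closest to Aldh1a2 (0.91, 0.75 and 0.81). With that centring Col3a1 and Col1a2 had an r of 0.53, and Col1a2 and Slc6a13 had 0.5 in place of -0.02. The r of the pairs then ran from -0.33 (Col1a1 and Ogn) to the 0.91 of Igf2 and Aldh1a2. With this centring the 2 libraries of a cortical or hippocampal group have equal and opposite values. The 14 points then hold only 8 free deviations, so these r and rho look firmer than they are. With either centring the points share libraries, depth and dissection, and the values are a description.

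Among 18909 other genes with a mean of at least 1 CPM, those most like the mean of the 10, centred within region over the 14 libraries, were Slc22a8 (r 0.88, rho 0.90, and 0.81 without KO cortex 1 and KO cerebellum 1) and Klhdc9 (0.88, 0.87 and 0.85). The following 10, with r between 0.83 and 0.87, were 4933407L21Rik, Tst, Haus7, Snrpc, Slc6a20a, Bfsp2, Ddr2, Slc13a3, Sardh and Mmp14. Slc22a8, Slc6a20a and Slc13a3 encode transporters, Ddr2 a collagen receptor and Mmp14 a metalloproteinase that cleaves collagen. The same search on the mean of the 3 collagen genes, made outside the naming rule, gave none of these 12: its first 4 were Adgrl1 (r 0.92, rho 0.86, and 0.87 without WT cortex 2 and KO hippocampus 1), Nfkbia, Ddit4 and Grik5 (r 0.89 each). The mean of the other fibroblast markers had an r of 0.55 with the mean of the 10 genes (rho 0.48, and 0.31 without its farthest 2 libraries) and of 0.30 with the 3 collagen genes (0.35 and -0.18). The mean of the choroid plexus markers had an r of 0.66 with Igf2 (rho 0.58, and 0.72 without the farthest 2), and of -0.23 with the collagen genes. This r was not particular to choroid plexus. Igf2 had an r of 0.75 with the solute carriers of brain barriers (rho 0.67, and 0.67 without the farthest 2) and of 0.72 with hippocampus markers (0.69 and 0.62). It was 0.67 with collagen maturation genes (0.66 and 0.54) and 0.65 with mural cell markers (0.71 and 0.64).

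Genes of the same pathways were read from lists. Of 13 other collagen genes 0 passed between genotypes in any region (edgeR), with medians of -0.30, -0.20 and -0.24 on the log2 scale in cerebellum, cortex and hippocampus, against -0.01, 0.02 and 0 over all genes. Col6a2, a chain of type VI collagen, had the lowest estimate of them in cerebellum, -0.99, with an edgeR adjusted p of 0.054 in the fit with the number as a block; it is named after its value was seen. Of 25 genes for collagen maturation, such as lysyl oxidase and the prolyl hydroxylases, 0 passed, with medians of -0.15, 0.01 and -0.15. Of 12 genes for collagen breakdown 0 passed (-0.13, 0.06 and -0.07), and of 16 other small proteoglycan and matrix genes 0 (-0.15, 0.05 and -0.02). Likewise 0 of 16 genes of the retinoic acid pathway (-0.03, 0.23 and -0.11) and 0 of 16 of the insulin-like growth factor pathway (0.02, 0 and 0) passed. Of 17 other solute carriers of brain barriers 0 passed (-0.16, -0.12 and -0.08), and with the number as a block Slc13a3, a dicarboxylate transporter, fell in KO cerebellum by 0.87 ± 0.12 on the log2 scale (edgeR adjusted p = 0.0043).

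Between regions some of these genes passed. In cerebellum against hippocampus, 5 of the 13 other collagen genes were higher and 2 lower, and 8 of the 25 maturation genes were higher and 5 lower, shares near the 47.3% of all genes called. The higher ones included Lox, the lysyl oxidase that cross-links collagen (1.66 ± 0.31, edgeR adjusted p = 0.00077), and Sparc, a collagen chaperone (1.58 ± 0.35, adjusted p = 0.0041). In hippocampus against cortex 3 of the 13 collagen genes were lower (Col6a1, Col6a2 and Col8a1) and 0 higher, where 12% of all genes were called. Of the retinoic acid genes, Stra6, a retinol carrier receptor, was higher in hippocampus than in cortex (1.17 ± 0.31) and lower in cerebellum than in hippocampus (-1.35 ± 0.28; edgeR adjusted p = 0.029 and 0.0016), while Rarb, a retinoic acid receptor, was ordered the other way (-0.69 ± 0.19 and 0.86 ± 0.17; 0.03 and 0.0013).

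Of the other cell types, 0 markers passed between genotypes in the fit of all libraries. With the number as a block in cerebellum, 2 of 9 oligodendrocyte, 3 of 8 astrocyte, 1 of 10 endothelial, 1 of 7 cerebellum and 1 of 5 thalamus markers fell (edgeR), where 0.348% of all genes were called lower. Oligodendrocyte markers (9 genes) had estimates below 0 for all 9 in KO cerebellum and in KO hippocampus (medians -0.76 and -0.68 on the log2 scale) and above 0 for 8 of 9 in KO cortex (0.24). They summed to 2340, 4380 and 2300 CPM in KO cerebellum and to 3310, 9040 and 2570 CPM in WT cerebellum, and their centred mean had an r of 0.56 with the 3 collagen genes (rho 0.64, and 0.74 without the farthest 2). Border macrophage markers had medians of -0.01, 0.29 and 0.13, mural cell markers of -0.17, 0.19 and -0.10 and endothelial markers of -0.07, 0.12 and -0.03. Haemoglobin and Alas2 transcripts of red cells had medians of 0.35, -0.44 and -1.47 in cerebellum, cortex and hippocampus. Their part in the values of the 10 genes was not tested.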

How the data were processed

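Per the labels' protocols, the sequenced total RNA came from a TRIzol preparation cleared of DNA with DNaseI. The authors deposited raw read counts per gene, 1 column for each of 14 libraries and no other column (0 unused). Per the submitters' processing notes, Trim Galore 0.6.4, cutadapt 2.10, STAR 2.7.3a and featureCounts 2.0.1 were used with GRCm38.p6 (mm10). Strandedness, multiply mapped reads and the annotation release: not given in the sources used here. Gene names came from GENCODE M21 (48058 of 48440 identifiers, 99.2%).

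Genes were kept by filterByExpr (24680) and tested with edgeR 4.0.16 (robust quasi-likelihood, TMM, R 4.3.3), all 14 libraries in 1 fit, with a biological coefficient of variation of 24.7% and 8 residual degrees of freedom. The mean effect of the regions used limma 3.58.1 (voom, random block, within-block correlation 0.096). DESeq2 1.42.0 and other settings were alternatives. The scripts were tested on simulated data. The 10 genes, the other lists and the tests were chosen with earlier results of these data known. All 10 genes were named in every comparison. For other lists up to 4 members past the threshold, or else the 2 most abundant, could be named, and 12 genes by likeness. No label says that replicates came from separate mice, so p-values measure the spread between these libraries. Numbers 1 to 3 occur in the titles of both KO and WT cerebellum, and no label says that the same number links libraries. Deviations from the group means correlated at 0.27, 0.74 and 0.32 for the same number over 18919 genes, over the bound of 0.1. However, KO 3 with WT 1 had 0.41 and KO 1 with WT 3 had 0.32, so the pairing behind the blocked cerebellar fit is not settled.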

Additional observations from a re-analysis of the deposited data

Results flagged for a closer look

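Ogn had a KO effect of opposite sign in cerebellum and hippocampus, with every KO library on 1 side of every WT library in each: the effect in cerebellum minus that in hippocampus was -1.95 on the log2 scale (SE 0.41). The interaction test did not pass (edgeR adjusted p = 1 over 24680 genes, range over the alternatives 0.056 to 1). Leaving out libraries in turn moved the difference between -2.37 and -1.63. Hippocampus had 2 libraries per genotype, where 18.1% of all genes had both KO libraries above both WT libraries.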

How the results depend on the processing

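One alternative fitted the cerebellar libraries alone, with the number as a replicate block. In it 2 of the 10 genes were called (Col1a1 and Col1a2) in place of 0, and 104 genes in all in place of 0. The libraries fitted and the block changed together there, and their parts in these counts are not separated here. The blocked fits of the region comparisons and interactions changed no count of the 10 genes. In cerebellum against cortex the count of 1 became 0 without the low-count filter and 2 with DESeq2 (Col1a1 and Slc22a6). Leaving out 1 library at a time gave counts of 0 to 1 for KO against WT in cortex, 0 to 2 for the effect in cerebellum minus that in cortex (Dcn and Slc6a13 without KO cortex 1), 0 to 1 for the mean effect, 0 to 1 for cerebellum against cortex, 4 to 7 for cerebellum against hippocampus and 3 to 5 for hippocampus against cortex. It turned the sign of the KO estimate of Dcn in cerebellum (-0.21 to 0.15) and cortex (-0.89 to 1.6), Lum (-0.16 to 0.47), Igf2 (-0.34 to 0.89) and Aldh1a2 (-1.04 to 0.42) in cortex, and Igf2 (-1.52 to 0.04) and Slc22a6 (-0.23 to 0.54) in hippocampus. Without KO cortex 1, 2884 genes in all were called in cortex in place of 0, and 1459 and 759 in the effects in cerebellum minus cortex and hippocampus minus cortex; without the filter 1 gene and with DESeq2 50 were called in cortex. Of the single KO estimates under the alternatives, 568 kept their direction and side of the threshold, 8 changed sign and 4 came to pass it. The causes of these changes were not tested. Many of the alternatives left out a library of another region, which bears little on the estimate of the region at hand. No single KO estimate passed in the main fit, so keeping the side of the threshold meant only that it still did not pass. The 568 is therefore not a measure of how firm the estimates are. With 2 libraries per genotype in cortex and hippocampus, a lone library left in a group is assumed to vary like the others. Lum and Col3a1 rest on as few as 16 and 9 reads per library.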
